A study of Mus musculus with 20 samples.

Results

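RNA sequencing was used to describe what a NASH diet, one that brings on non-alcoholic steatohepatitis, changed in wild-type (WT) mouse liver. The comparison is of 5 WT livers on the NASH diet with 5 WT livers on chow. The libraries were taken by the WT columns of the deposited count table, where the NASH columns carry the name HFD and the chow columns the name CD. They were 10 of the 20 libraries of a study on the role of Pck1, which encodes the cytosolic phosphoenolpyruvate carboxykinase of gluconeogenesis, in diet-induced NASH. The other 10 came from Pck1-cKO mice, a conditional Pck1 knockout, with 5 livers on each diet. Mice of all 4 groups had their diet for 24 weeks and were 31 to 33 weeks old. The composition of the NASH diet, the strain, the sex, the fasting state and the hour of tissue collection are not in the sources used here. Whole liver was sequenced, so that fewer cells of a type and less RNA per cell cannot be told apart.

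Values are CPM, read counts scaled to a common library size with edgeR's TMM factors, and 5 values in a row belong to replicates 1 to 5. A gene was called where the quasi-likelihood F test of edgeR gave a Benjamini-Hochberg adjusted p under 0.05 over the 14440 genes tested. Log2 fold changes are NASH diet minus chow, with a standard error (SE), and "higher" and "lower" refer to the NASH diet.

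The chow libraries held 13369736 to 19226435 counts each and the NASH libraries 9958935 to 16193657, so that 1 CPM stood for about 10 to 19.2 counts before scaling. The groups differed in sex as read from the counts of 4 Y-linked genes and of Xist. All 5 chow livers were male, whereas 4 NASH livers were female and 1, replicate 4, was male. Diet and sex therefore cannot be told apart in the 4 female livers. The length slope, which is the regression of a library's expression relative to the other libraries on gene length, was negative, from -0.343 to -0.247, in chow replicates 3, 4 and 5 and NASH replicate 4. It lay between 0.0099 and 0.159 in the other 6 WT libraries. NASH replicate 4 thus shared sex and slope sign with chow replicates 3, 4 and 5, and its own value is read against the chow males throughout. Sex and slope were also added to the model as terms. The sex term rests on the WT NASH and Pck1-cKO groups, which held both sexes. Hepatocyte defining markers fitted the tissue label by their level, with a sum of 73133 to 141610 CPM in chow and 73524 to 128660 CPM in NASH livers. Alb, the serum albumin gene, was at 58864, 54089, 65560, 37685 and 106350 CPM in WT chow and 80320, 63323, 80169, 37080 and 67804 CPM in WT NASH. Between the diets 0 of the 10 were called, beside 5.93% of all genes (2 without chow replicate 1 or 2 or NASH replicate 4). Pck1 was at 4242, 4641, 3406, 1707 and 3871 CPM in WT chow and 2543, 1888, 2975, 1701 and 2344 CPM in WT NASH, with overlapping groups and a log2 fold change of -0.64 (SE 0.276, adjusted p = 0.177 by edgeR).

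As background, the liver adjusts its cholesterol synthesis through SREBP2, a transcription factor that is held in the endoplasmic reticulum membrane by INSIG proteins when sterols are plentiful and is released when they are scarce. SREBP1c, from Srebf1, acts in the same way on genes of fatty acid synthesis and responds to insulin. PPAR-alpha, a nuclear receptor for fatty acids, raises genes of fatty acid oxidation and omega-hydroxylation. Steatohepatitis combines fat storage in hepatocytes with inflammation and scarring by activated stellate cells.

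Proximal promoters of the sterol genes are shown because these genes gave the largest group of rises, and because SREBP factors bind such promoters together with NF-Y, whose site is the CCAAT box. The following are the 250 bases before the annotated transcription start, 5′ to 3′ on the gene's strand, from RefSeq on build GRCm38.p6. Capitals mark CCAAT or its reverse complement ATTGG.
Hmgcs1, chr13:119690101-119690350, plus strand: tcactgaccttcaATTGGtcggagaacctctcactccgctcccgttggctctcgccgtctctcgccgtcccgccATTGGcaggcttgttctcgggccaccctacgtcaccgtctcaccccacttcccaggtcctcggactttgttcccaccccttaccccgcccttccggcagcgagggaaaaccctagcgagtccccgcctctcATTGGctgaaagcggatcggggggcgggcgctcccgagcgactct
Idi1, chr13:8885356-8885605, plus strand: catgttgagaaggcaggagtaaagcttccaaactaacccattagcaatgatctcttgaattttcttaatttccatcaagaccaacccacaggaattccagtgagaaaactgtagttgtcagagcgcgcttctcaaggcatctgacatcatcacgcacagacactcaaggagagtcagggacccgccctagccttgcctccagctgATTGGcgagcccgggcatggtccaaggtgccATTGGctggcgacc
Nsdhl, chrX:72918271-72918520, plus strand: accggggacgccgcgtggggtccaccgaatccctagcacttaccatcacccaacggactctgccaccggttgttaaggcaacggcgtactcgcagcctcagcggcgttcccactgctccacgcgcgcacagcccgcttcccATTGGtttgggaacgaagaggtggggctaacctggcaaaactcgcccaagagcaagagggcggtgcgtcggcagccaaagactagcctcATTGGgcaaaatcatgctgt
Mvd, chr8:122443423-122443672, minus strand: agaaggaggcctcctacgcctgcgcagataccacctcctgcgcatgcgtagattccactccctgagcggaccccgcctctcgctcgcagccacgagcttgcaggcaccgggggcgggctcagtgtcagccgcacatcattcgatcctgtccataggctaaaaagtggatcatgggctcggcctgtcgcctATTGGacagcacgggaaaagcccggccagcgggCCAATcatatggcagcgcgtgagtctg
Fasn, chr11:120824548-120824797, minus strand: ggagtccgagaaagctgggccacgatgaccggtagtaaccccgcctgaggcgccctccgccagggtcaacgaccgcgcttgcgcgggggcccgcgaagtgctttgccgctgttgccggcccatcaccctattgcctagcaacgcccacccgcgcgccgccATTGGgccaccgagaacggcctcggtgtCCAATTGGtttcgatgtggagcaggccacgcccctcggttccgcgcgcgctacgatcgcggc

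A match to these letters describes the sequence and is not evidence of binding. Each printed Hmgcs1, Idi1, Nsdhl and Mvd promoter held at least 2 matches, the nearest beginning 45, 14, 20 and 27 bases before the start. The Fasn promoter, shown as that of a lipogenic gene, held 3, of which 2 share bases. In the window from 250 bases before to 50 after the start, CCAAT on either strand was found in 16 of the 17 genes of the cholesterol synthesis list that have a promoter entry (94.1%). It was found in 11096 of all 27025 genes with an entry (41.1%), in 42.5% of the 10408 tested genes with one, in 10 of 13 genes of the de novo lipogenesis list (76.9%) and in 13 of 17 of the circadian clock list (76.5%). In the fatty acid oxidation list it was found in 6 of 17 (35.3%), and in the triglyceride and lipid droplet list in 7 of 19 (36.8%). The sterol regulatory element TCACNCCAC was searched on both strands too and was present in 1 of the 17 sterol genes, Hmgcs1, and in 1.44% of all genes. The E-box CACGTG, which reads the same on both strands, was present in 4 of the 17 (23.5%) and in 8.09% of all genes. No match says only that these letters are not in this window.

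Across the genome, 857 of 14440 genes were called (5.93%), 389 higher (2.69%) and 468 lower (3.24%), and 584 of them differed at least 2-fold. The median log2 fold change of all genes tested was 0.01. In 553 of the 857 genes the groups did not overlap, against 888 of all genes tested (6.15%). With sex as a term 161 genes were called (1.11%; 0.457% higher and 0.658% lower), of which 147 were among the 857. With the slope as a term 1775 were called (12.3%; 6.7% higher and 5.6% lower), 826 of them shared. With both terms 723 were called (5.01%; 2.74% higher and 2.27% lower), 372 of them shared. In males alone 99 were called (0.686%; 0.367% higher and 0.319% lower), 46 of them shared. Among libraries of positive slope 777 were called (5.38%; 2.53% higher and 2.85% lower), and among libraries of negative slope 36 (0.249%; 0.125% in each direction). The direction was the same with both terms in 854 of the 857. Of the 389 genes called higher, 264 also had the NASH male above all 5 chow males, as had 22.8% of all genes tested. Of the 468 called lower, 369 had it below all 5, as had 20.7% of all genes. These genes were chosen in a fit that includes that library, so the counts are a description. Leaving out the NASH male raised the number of called genes to 1718, and leaving out chow replicate 1 or 2 raised it to 1095 and 1192. Leaving out chow replicate 3, 4 or 5 gave 427, 563 and 456, and leaving out NASH replicate 1, 2, 3 or 5 gave 509, 409, 531 and 441.

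**Figure D1:**
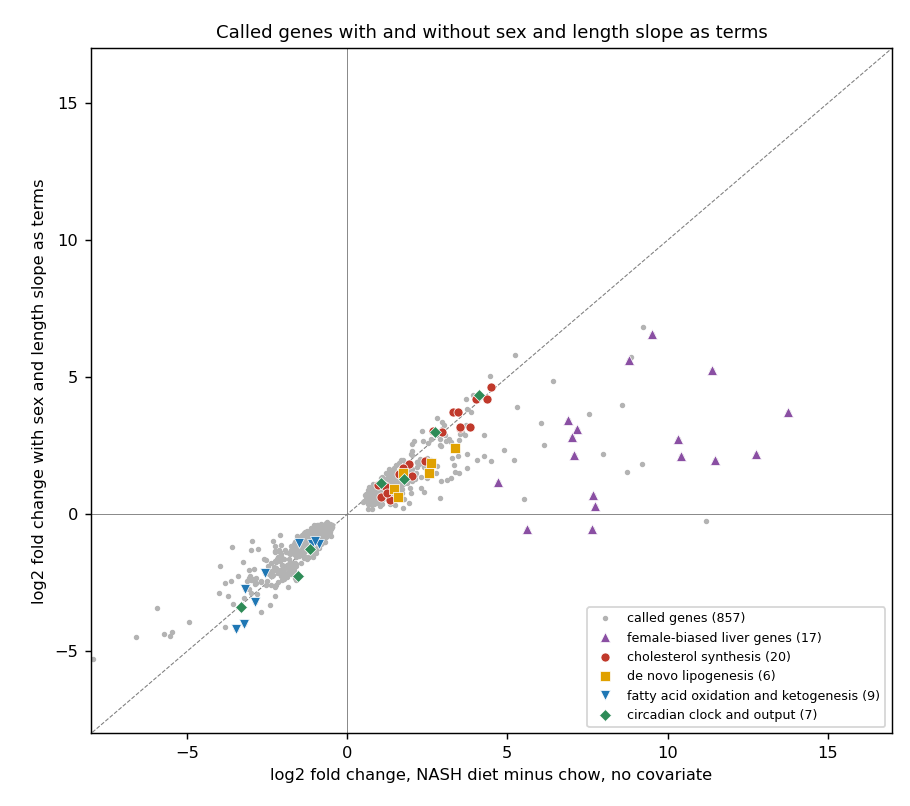
Log2 fold change of each of the 857 called genes, NASH diet minus chow in WT liver, without covariates on the x axis and with sex and length slope as terms on the y axis; the dashed line marks equal values and coloured points are the called members of 5 gene lists. Cholesterol synthesis genes lie near the line, while the 17 called female-biased genes lie far below it.

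**Figure D2:**
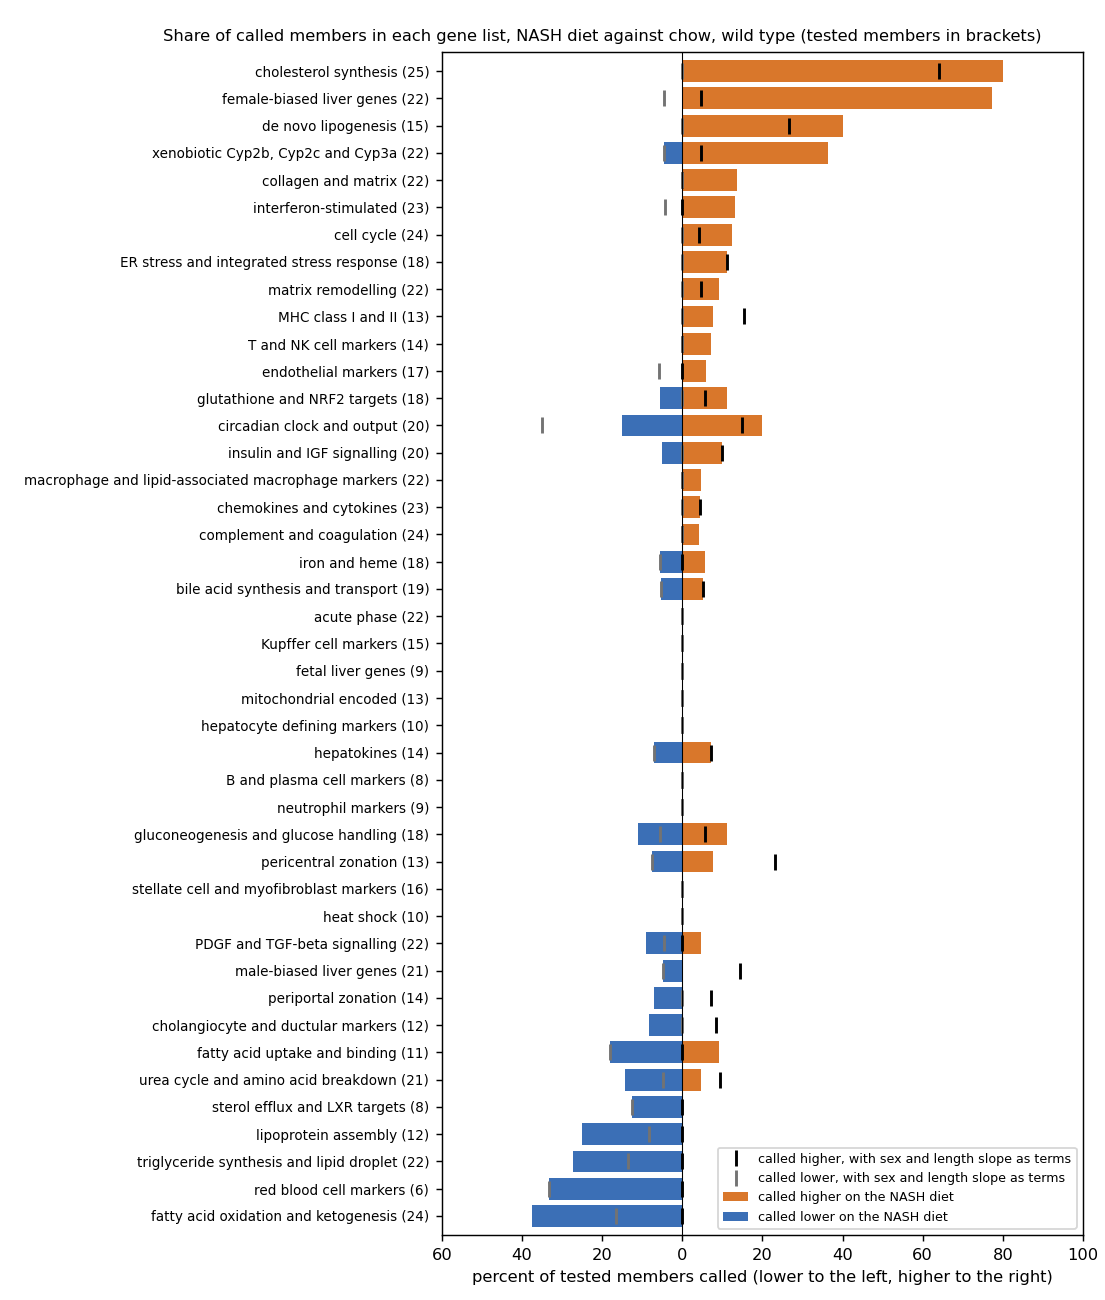
Share of tested members called higher (orange, right) or lower (blue, left) in each gene list with at least 5 tested members, in percent; black and grey marks give the same shares with sex and length slope as terms. Cholesterol synthesis has the largest share called higher (20 of 25) and fatty acid oxidation the largest share called lower (9 of 24).

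Genes of cholesterol synthesis were higher on the NASH diet from the first to the last steps of the pathway. Of 25 listed genes, 20 were called higher and 0 lower, beside 2.69% of all genes called higher. The median log2 fold change of the list was 1.94, beside 0.01 for all genes. In 21 of the 25 all NASH livers were above all chow livers, beside 2.9% of all genes tested above and 3.25% below, and in 21 the NASH male lay above all 5 chow males. The list was fixed with earlier results on these data known.

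Hmgcs1, the cytosolic synthase that makes HMG-CoA and commits acetyl-CoA to the pathway, was at 47.3, 49.5, 27.2, 22.9 and 26.1 CPM in WT chow and 705, 288, 340, 249 and 405 CPM in WT NASH. The lowest NASH liver was far above the highest chow liver, and the log2 fold change was 3.52 (SE 0.402, adjusted p = 4.78e-05 by edgeR).

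The middle of the pathway, which builds and joins isoprenoid units, showed some of the largest rises. Mvd, the mevalonate diphosphate decarboxylase, was at 1.24, 1.46, 1.19, 0.095 and 1.11 CPM in WT chow and 20.3, 12.1, 9.38, 9.86 and 8.91 CPM in WT NASH, with a log2 fold change of 3.53 (SE 0.55, adjusted p = 0.000896 by edgeR). Idi1, the isopentenyl diphosphate isomerase, was at 1.95, 1.3, 2.19, 3.7 and 2.77 CPM in WT chow and 49, 22.4, 22.6, 120.0 and 51.1 CPM in WT NASH. Its highest value was in the male NASH liver, and the log2 fold change was 4.48 (SE 0.934, adjusted p = 0.00774 by edgeR). Fdps, the farnesyl diphosphate synthase, was at 5.92, 9.1, 6.37, 6.36 and 13.4 CPM in WT chow and 208, 92.1, 81.8, 154 and 136 CPM in WT NASH. All 5 NASH livers were above all 5 chow livers, with a log2 fold change of 4.03 (SE 0.489, adjusted p = 8.55e-05 by edgeR), a fitted 16.3-fold difference.

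Squalene and sterol ring steps followed the same direction. Sqle, the squalene epoxidase and a further control point of the pathway, was at 2.49, 2.87, 4.28, 5.6 and 5.61 CPM in WT chow and 120.0, 55.2, 46.9, 99.9 and 101 CPM in WT NASH, with a log2 fold change of 4.35 (SE 0.822, adjusted p = 0.00379 by edgeR). Cyp51, the lanosterol demethylase, was at 15.1, 17.5, 27.6, 21.6 and 16.3 CPM in WT chow and 299, 121, 119, 209 and 211 CPM in WT NASH. The groups were far apart, with a log2 fold change of 3.29 (SE 0.52, adjusted p = 0.000964 by edgeR). Nsdhl, a sterol dehydrogenase of the demethylation complex, was at 5.33, 4.39, 4.58, 2.37 and 12.1 CPM in WT chow and 81.5, 45.1, 36.3, 81.4 and 72.4 CPM in WT NASH, with a log2 fold change of 3.45 (SE 0.482, adjusted p = 0.000361 by edgeR). Dhcr7, which catalyses the last step to cholesterol, was at 14.7, 18, 4.18, 5.22 and 4.64 CPM in WT chow and 109.9, 61.3, 55.3, 58.8 and 78.9 CPM in WT NASH. Chow replicates 1 and 2, of positive slope, were above chow replicates 3, 4 and 5, yet all were below the NASH livers, with a log2 fold change of 2.95 (SE 0.463, adjusted p = 0.000958 by edgeR). Msmo1, a sterol methyl oxidase, had a log2 fold change of 2.66 (SE 0.674, adjusted p = 0.0244 by edgeR) and was highest in the male NASH liver; without chow replicate 3 or 5 its adjusted p was up to 0.0622 by edgeR.

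Regulators of the pathway rose as well. Srebf2, the gene of SREBP2, was at 25.7, 23.2, 13, 16.1 and 11.9 CPM in WT chow and 116, 73.1, 61.4, 29.9 and 88.7 CPM in WT NASH. Lowest in the NASH group but above every chow liver was the male, and the log2 fold change was 2.04 (SE 0.341, adjusted p = 0.00152 by edgeR). Insig1, the membrane anchor of SREBP, was higher too, with a log2 fold change of 1.73 (SE 0.375, adjusted p = 0.0101 by edgeR). Ebp, Tm7sf2, Hsd17b7 and Sc5d were among the members not called, with log2 fold changes of 0.19, 0.72, 0.91 and 0.86 (edgeR adjusted p = 0.634, 0.182, 0.129 and 0.0689).

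With both sex and slope as terms, 16 of the 25 sterol genes were called higher and the median was 1.70. With sex alone 12 were called, with slope alone 21, and in males alone, where WT NASH had 1 liver, 7. In the 6 libraries of negative slope 4 were called, beside 36 of all genes. Fits that left out 1 WT library called 17 to 20 of the 25. Hmgcs1, Fdps and Cyp51 kept the call in each of these settings, and so did Dhcr7 in all but males alone. Among the genes named above, Srebf2, Insig1 and Msmo1 lost it with sex alone as a term, at 1.7 (adjusted p = 0.0755 by edgeR), 1.57 (adjusted p = 0.0881 by edgeR) and 2.67 (adjusted p = 0.0884 by edgeR).

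**Figure D3:**
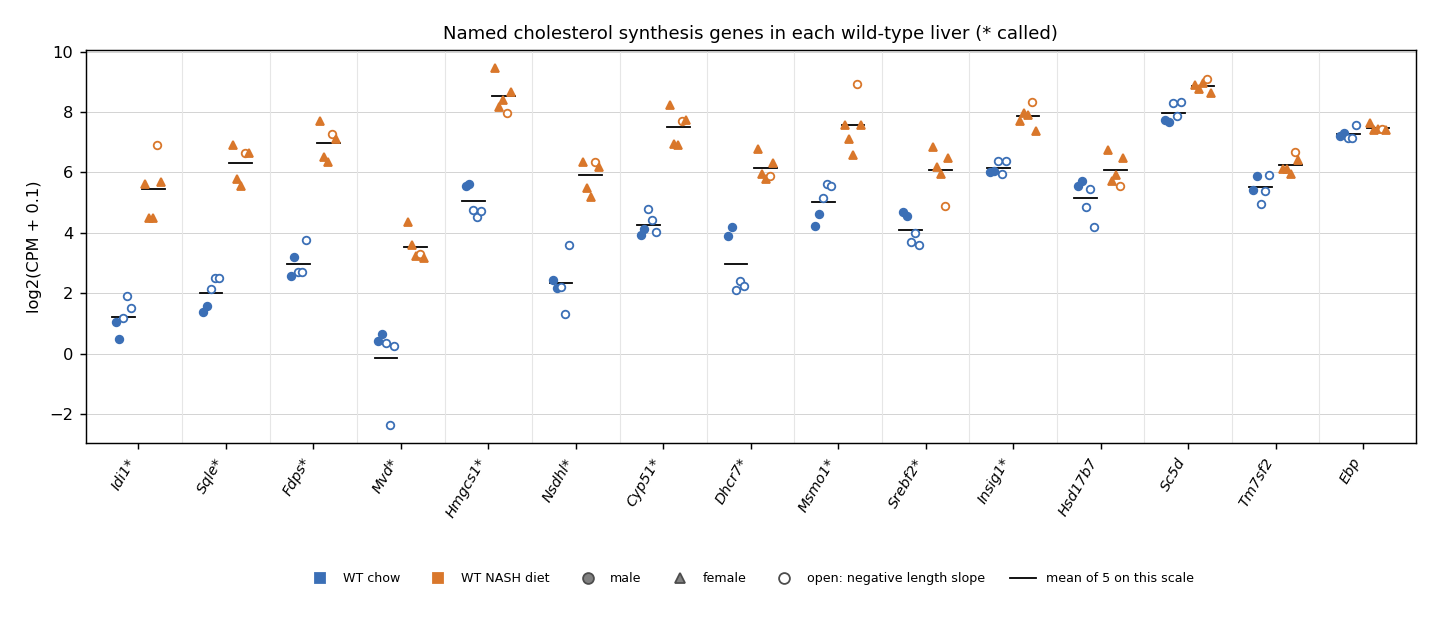
Expression, as log2(CPM + 0.1), of the 15 cholesterol synthesis genes named in the text in each of the 10 WT livers, ordered by log2 fold change, with chow in blue and NASH diet in orange; circles are males, triangles females, open symbols libraries of negative length slope, and black lines group means. In 13 of the 15 every NASH value lies above every chow value, and Ebp and Hsd17b7 overlap.

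Fatty acid synthesis rose in part. Of 15 genes of de novo lipogenesis, 6 were called higher and 0 lower, beside 2.69% and 3.24% of all genes. The list median was 1.25 beside 0.01 for all genes. With both terms 4 were called, with sex as a term 3 and in males alone 0. For each of the 6 called genes the male NASH liver was lower than the female NASH livers.

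Srebf1, which encodes SREBP1a and SREBP1c, was at 22.2, 22.7, 15.7, 15.7 and 18.8 CPM in WT chow and 112, 149, 156, 53.7 and 112 CPM in WT NASH. No NASH value reached down to the chow values, and the log2 fold change was 2.61 (SE 0.31, adjusted p = 7.41e-05 by edgeR). It was 1.85 (adjusted p = 0.000284 by edgeR) with both terms and 1.49 (adjusted p = 0.0662 by edgeR) in males alone. Fasn, the fatty acid synthase, was at 47, 47.8, 13.1, 15.6 and 17 CPM in WT chow and 333, 349, 291, 80 and 391 CPM in WT NASH. The male NASH liver was well below the female NASH livers and still above every chow liver, with a log2 fold change of 3.36 (SE 0.505, adjusted p = 0.000641 by edgeR). In males alone it was 1.5 (adjusted p = 0.373 by edgeR). Acly, which supplies cytosolic acetyl-CoA from citrate to both sterol and fatty acid synthesis, was at 67.9, 69.3, 50.2, 35.3 and 59 CPM in WT chow and 207, 206, 199.6, 152 and 178 CPM in WT NASH. The log2 fold change was 1.74 (SE 0.2, adjusted p = 4.78e-05 by edgeR), and 1.51 (adjusted p = 0.000214 by edgeR) with both terms.

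Acaca, the acetyl-CoA carboxylase of lipogenesis, was at 33.9, 31, 15.8, 9.59 and 17.2 CPM in WT chow and 69.1, 59.5, 71.7, 21.5 and 75 CPM in WT NASH, and here the male NASH liver lay within the chow range. Its log2 fold change was 1.46 (SE 0.359, adjusted p = 0.0205 by edgeR); without chow replicate 3 or 5 or NASH replicate 5 the edgeR adjusted p reached 0.0559, and with sex as a term it was 1.3 (adjusted p = 0.252 by edgeR). Pklr, the liver pyruvate kinase, had a log2 fold change of 1.6 (SE 0.375, adjusted p = 0.0158 by edgeR), and of 0.62 (adjusted p = 0.346 by edgeR) with both terms. Pnpla3, a lipase of lipid droplets, had one of 2.56 (SE 0.715, adjusted p = 0.038 by edgeR), and the male NASH liver was at 0.147 CPM, within the chow range of 0.108 to 1.49 CPM. The call on Pnpla3 was lost without any 1 of 7 WT libraries (chow replicates 1, 2, 4 and 5 and NASH replicates 2, 3 and 5; edgeR adjusted p up to 0.116) and with both terms, at 1.52 (adjusted p = 0.396 by edgeR). Mid1ip1, an activator of acetyl-CoA carboxylase that is not on the list, was at 4.44, 5.74, 4.28, 4.65 and 7.69 CPM in WT chow and 26.3, 28.2, 33.5, 14.3 and 25.1 CPM in WT NASH, without overlap and with a log2 fold change of 2.25 (SE 0.279, adjusted p = 9.4e-05 by edgeR).

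Genes of desaturation and elongation were not called. Scd1, the stearoyl-CoA desaturase, was at 3298, 4714, 1182, 1624 and 3648 CPM in WT chow and 359.7, 2425, 2111, 1401 and 3671 CPM in WT NASH, with overlapping groups and a log2 fold change of -0.54 (SE 0.678, adjusted p = 0.673 by edgeR). Elovl6, which extends palmitate, was at 75.8, 56, 51.6, 46.3 and 54.6 CPM in WT chow and 53.2, 55.2, 57, 25.2 and 60.5 CPM in WT NASH. Only the male NASH liver stood below the chow livers, and the log2 fold change was -0.18 (SE 0.287, adjusted p = 0.753 by edgeR). Acacb, the carboxylase isoform that restrains mitochondrial fatty acid entry, was not called at 0.96 (SE 0.429, adjusted p = 0.194 by edgeR).

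Genes of fatty acid oxidation and ketogenesis were lower, in the microsomal, peroxisomal and mitochondrial arms. Of 24 listed genes, 0 were called higher and 9 lower, beside 3.24% of all genes called lower, with a median of -0.80. The NASH male lay below all 5 chow males in 19 of the 24, beside 20.7% of all genes tested. With both terms 4 were called lower, with sex as a term 2, in males alone 3 and among libraries of negative slope 5. Without chow replicate 3 or NASH replicate 2 the 9 fell to 5, and the fits that left out 1 WT library gave 5 to 10.

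Cyp4a14 and Cyp4a10 encode fatty acid omega-hydroxylases and are textbook PPAR-alpha targets. Cyp4a14 was at 5188, 5201, 16311, 11276 and 7619 CPM in WT chow and 1904, 535, 989, 5 and 686 CPM in WT NASH. The 4 female NASH livers were below all chow livers and the male NASH liver was far below these, with a log2 fold change of -3.47 (SE 0.77, adjusted p = 0.0111 by edgeR). Cyp4a10 was at 3765, 3376, 5835, 5113 and 4404 CPM in WT chow and 948, 485, 529, 3.53 and 452 CPM in WT NASH. Again the male NASH liver was far below the females, with a log2 fold change of -3.22 (SE 0.69, adjusted p = 0.00919 by edgeR). In males alone the log2 fold changes were -10.83 (adjusted p = 0.00178 by edgeR) and -10.31 (adjusted p = 0.000227 by edgeR), and with sex as a term they were -4.1 (adjusted p = 0.0797 by edgeR) and -3.85 (adjusted p = 0.069 by edgeR). Their relatives Cyp4a31 and Cyp4a32 were also called lower, at -3.24 (SE 0.528, adjusted p = 0.00117 by edgeR) and -2.69 (SE 0.305, adjusted p = 4.78e-05 by edgeR), and with sex alone Cyp4a31 was at -2.85 (adjusted p = 0.0636 by edgeR). The Cyp4a genes are near-identical neighbours, so that the split of reads between them is uncertain.

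Acot1, a cytosolic acyl-CoA thioesterase, was at 92, 61.5, 268, 149 and 179 CPM in WT chow and 48.7, 11.6, 13.7, 4.41 and 23.8 CPM in WT NASH, without overlap and with a log2 fold change of -2.87 (SE 0.608, adjusted p = 0.00864 by edgeR). Acot2, its mitochondrial neighbour and close copy, was at 11.3, 6.07, 59.1, 52.6 and 42.4 CPM in WT chow and 6.59, 4.45, 3.45, 0.294 and 3.62 CPM in WT NASH. Chow replicates 1 and 2 were far below chow replicates 3, 4 and 5, and replicate 2 lay within the NASH range, with a log2 fold change of -3.18 (SE 0.693, adjusted p = 0.0101 by edgeR). Among libraries of positive slope it was -0.91 (adjusted p = 0.355 by edgeR). Ehhadh, the peroxisomal bifunctional enzyme, was at 981, 756, 5149.5, 1953 and 1548 CPM in WT chow and 444, 387, 391, 183 and 351 CPM in WT NASH, with a log2 fold change of -2.56 (SE 0.483, adjusted p = 0.00379 by edgeR); among libraries of positive slope, which held none of the 3 high chow livers, it was -1.12 (adjusted p = 0.15 by edgeR).

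Of mitochondrial beta-oxidation, Hadha and Hadhb, the subunits of the trifunctional protein, were called at -0.89 (SE 0.257, adjusted p = 0.044 by edgeR) and -1.5 (SE 0.358, adjusted p = 0.0171 by edgeR). Without 1 WT library their edgeR adjusted p reached 0.123 and 0.0545, with Hadha lost without chow replicate 3, 4 or 5 or NASH replicate 2, 3 or 5, and Hadhb without chow replicate 3 or NASH replicate 2. Hadhb was -1.04 (adjusted p = 0.0228 by edgeR) with both terms, while Hadha lost the call, and with sex alone Hadhb lost it too, at -1.55 (adjusted p = 0.0929 by edgeR).

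Ppara, the gene of PPAR-alpha itself, was at 459.7, 370.5, 211, 236 and 197 CPM in WT chow and 337, 337, 381, 148 and 352 CPM in WT NASH, with overlapping groups and a log2 fold change of 0.08 (SE 0.341, adjusted p = 0.92 by edgeR). Cpt1a, which admits long-chain acyl groups to mitochondria, was at 1192, 1046, 646, 648 and 556 CPM in WT chow and 552, 492, 544, 245 and 531 CPM in WT NASH. No NASH liver reached the chow range, yet the gene was not called, with a log2 fold change of -0.79 (SE 0.295, adjusted p = 0.117 by edgeR). With both terms it was -1.23 (adjusted p = 0.000867 by edgeR). Other lipid enzymes outside the list were lower with and without the terms: Ephx2, the soluble epoxide hydrolase, at -1.77 (SE 0.221, adjusted p = 9.4e-05 by edgeR) and, with both terms, -1.45 (adjusted p = 0.00255 by edgeR), and Hsd17b11, a lipid droplet dehydrogenase, at -2.19 (SE 0.333, adjusted p = 0.000704 by edgeR) and -1.63 (adjusted p = 0.0125 by edgeR).

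Genes of lipid droplets were lower rather than higher. Of 24 listed genes of triglyceride synthesis and lipid droplets 22 were tested, with a median of -0.57. Of these 0 were called higher and 6 lower, beside 2.69% and 3.24% of all genes. Cidea and Plin1 had 12 and 17 counts over the 10 WT libraries and were not tested. With both terms 3 members were called lower, and with sex alone as a term 2.

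Cidec, a protein that fuses lipid droplets, was at 20.3, 11.5, 67.2, 70.6 and 41.6 CPM in WT chow and 0.904, 0.534, 0.787, 0.588 and 1.61 CPM in WT NASH. Every NASH liver was below 2 CPM and every chow liver above 11 CPM, and the log2 fold change was -5.54 (SE 0.541, adjusted p = 8.53e-06 by edgeR). It kept the call in every alternative run, at -4.45 (adjusted p = 0.000867 by edgeR) with both terms and -6.14 (adjusted p = 0.0391 by edgeR) in males alone. Plin2, the coat protein of hepatocyte droplets, was at 642, 432, 1409, 1879.7 and 1231 CPM in WT chow and 373, 291, 292, 301 and 339 CPM in WT NASH. The groups did not overlap, but chow replicates 1 and 2 were well below chow replicates 3, 4 and 5. The log2 fold change was -1.81 (SE 0.407, adjusted p = 0.0121 by edgeR), and among libraries of positive slope it was -0.71 (adjusted p = 0.295 by edgeR). With sex alone it was -1.95 (adjusted p = 0.0758 by edgeR).

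G0s2, an inhibitor of the triglyceride lipase ATGL, was at 169.6, 118, 541, 697 and 622 CPM in WT chow and 66.3, 62.8, 26.5, 43.4 and 76.8 CPM in WT NASH. The same 2 chow livers were low, with a log2 fold change of -2.96 (SE 0.652, adjusted p = 0.0107 by edgeR) and, among libraries of positive slope, -1.28 (adjusted p = 0.255 by edgeR). Dgat1, which forms triglyceride from diglyceride, was at 24.3, 27.6, 26.8, 28.5 and 27.5 CPM in WT chow and 14.9, 17.4, 14.3, 11.9 and 14.1 CPM in WT NASH. The values within each group were close, and the log2 fold change was -0.89 (SE 0.165, adjusted p = 0.00329 by edgeR), with -0.77 (adjusted p = 0.0233 by edgeR) under both terms and -0.72 (adjusted p = 0.111 by edgeR) with sex alone. Fitm1 and Lpin2, at -2.09 (SE 0.554, adjusted p = 0.0306 by edgeR) and -0.83 (SE 0.246, adjusted p = 0.0488 by edgeR), were the other 2 called members, and neither kept the call with both terms. Both also lost it without single WT libraries: Fitm1 without chow replicates 3, 4 or 5 or NASH replicates 1, 2, 3 or 5 (edgeR adjusted p up to 0.101), and Lpin2 without any 1 of 8, all but chow replicate 5 and NASH replicate 4 (up to 0.135). Clstn3, whose adipocyte isoform clstn3b acts at lipid droplets, was at 10.2, 9.37, 24, 22.2 and 16.3 CPM in WT chow and 1.23, 1.66, 1.63, 1.18 and 0.452 CPM in WT NASH, with a log2 fold change of -3.72 (SE 0.594, adjusted p = 0.000978 by edgeR); gene counts do not tell its isoforms apart.

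Among 11 genes of fatty acid uptake and binding 1 was called higher and 2 lower, beside 2.69% and 3.24% of all genes. Slc27a1 and Slc27a2, fatty acid transport proteins, were called lower at -1.74 (SE 0.323, adjusted p = 0.00329 by edgeR) and -1.08 (SE 0.244, adjusted p = 0.0125 by edgeR). Slc27a2 lost the call with sex alone as a term, at -1.07 (adjusted p = 0.138 by edgeR). Vldlr, the VLDL receptor, was called higher at 3.48 (SE 0.769, adjusted p = 0.0107 by edgeR), but the female NASH livers alone were high: the female NASH livers were at 8.39 to 20.3 CPM, the male NASH liver at 0 CPM and chow at 0.542 to 1.49 CPM. With both terms Vldlr was at 1.49 (adjusted p = 0.202 by edgeR). Cd36, a fatty acid translocase often raised in fatty liver, was at 53.1, 71.1, 124, 309 and 197 CPM in WT chow and 108, 216, 196, 74.7 and 147 CPM in WT NASH, with overlapping groups and a log2 fold change of -0.02 (SE 0.437, adjusted p = 0.981 by edgeR). Among libraries of positive slope alone it was 1.45 (adjusted p = 0.00709 by edgeR). Fabp1, the most abundant member in CPM, was not called, at 0.06 (SE 0.542, adjusted p = 0.965 by edgeR).

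**Figure D4:**
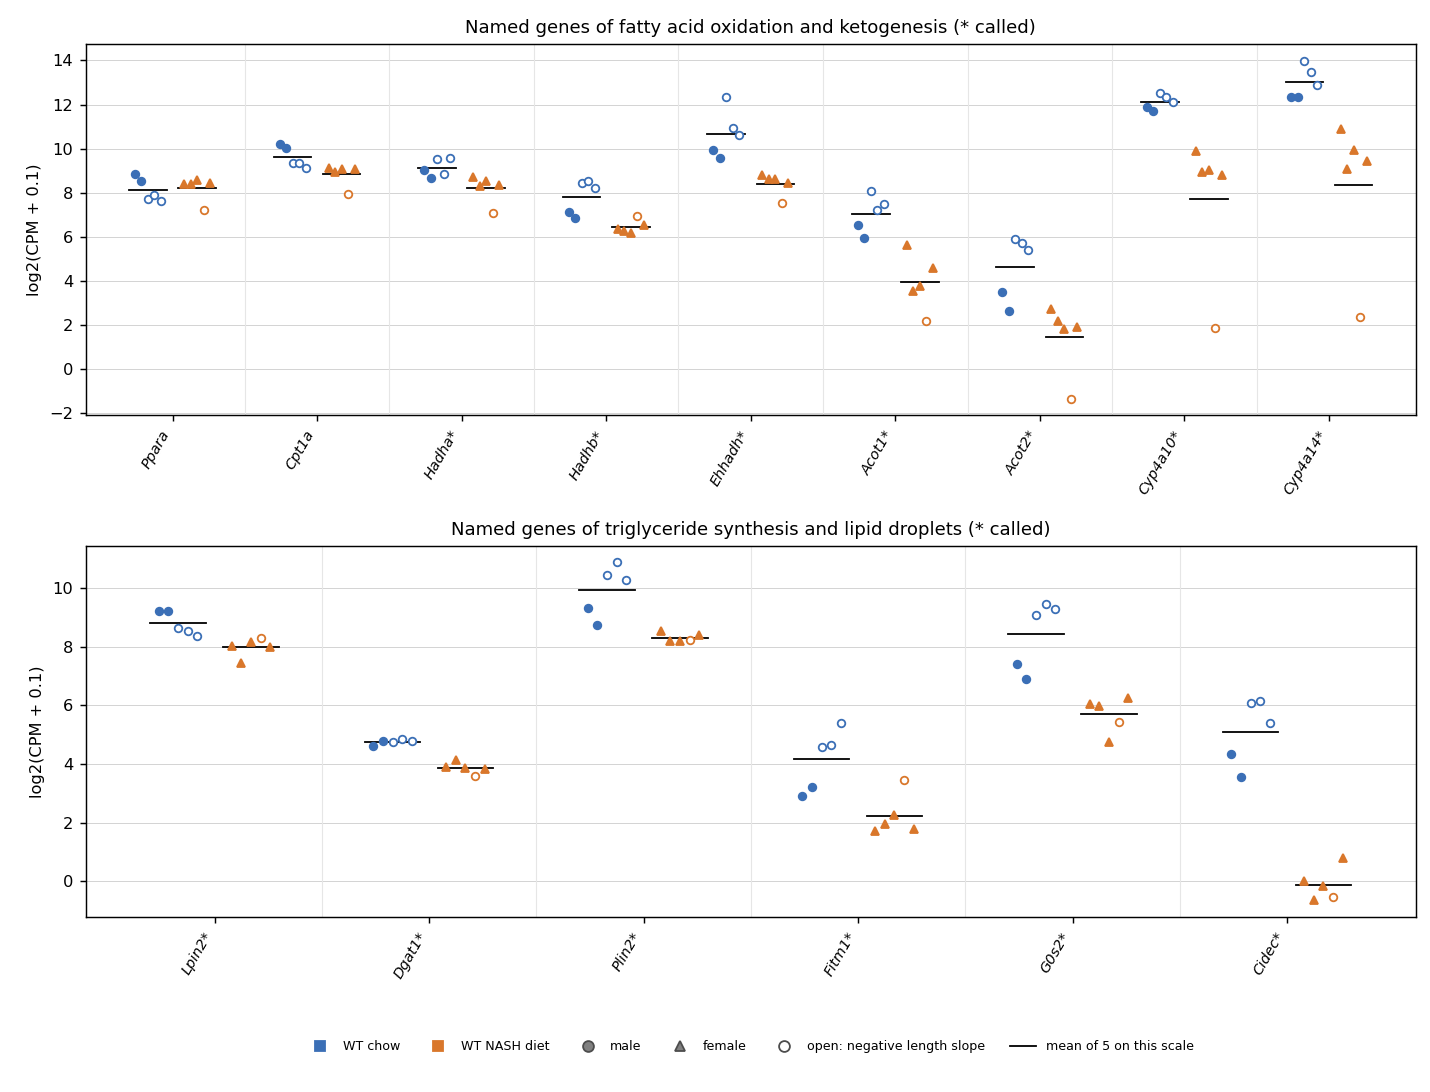
Expression, as log2(CPM + 0.1), of the 9 fatty acid oxidation genes (top) and the 6 triglyceride and lipid droplet genes (bottom) that the text names on these lists, in each of the 10 WT livers, ordered by log2 fold change; colours and symbols as in the plot of sterol genes. For Cyp4a10 and Cyp4a14 the male NASH liver lies far below the 4 female NASH livers, and Cidec shows 5 low NASH values without overlap.

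Genes of the circadian clock differed between the groups. Of 20 genes of the clock and its output, 4 were called higher and 3 lower, beside 2.69% and 3.24% of all genes. The list median was -0.15. With both terms 3 were called higher and 7 lower, and without NASH replicate 3 the 3 called lower became 6. These transcripts change with the hour of sampling and with feeding; neither is in the labels, and their part in the result was not tested.

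Arntl, which encodes the activator BMAL1, was at 4.8, 3.79, 1.99, 2.37 and 1.59 CPM in WT chow and 28.1, 14.4, 12.8, 26.8 and 16.3 CPM in WT NASH. The NASH livers were clearly separate, with a log2 fold change of 2.73 (SE 0.337, adjusted p = 9.4e-05 by edgeR), and it was 3.02 (adjusted p = 4.97e-05 by edgeR) with both terms and 3.18 (adjusted p = 0.00713 by edgeR) in males alone. Npas2, a partner of BMAL1, was at 0.355, 0.65, 0.0995, 0.095 and 0 CPM in WT chow and 10.5, 4.45, 1.63, 2.65 and 3.94 CPM in WT NASH, with a log2 fold change of 4.11 (SE 0.719, adjusted p = 0.00206 by edgeR). Bhlhe41, a repressor of BMAL1 activity also named Dec2, was at 11.9, 5.36, 7.66, 9.69 and 6.24 CPM in WT chow and 0.839, 0.89, 1.09, 1.18 and 0.194 CPM in WT NASH. It was lower in every NASH liver, with a log2 fold change of -3.31 (SE 0.498, adjusted p = 0.000641 by edgeR), while its relative Bhlhe40 was higher, at 1.76 (SE 0.36, adjusted p = 0.00701 by edgeR). With sex alone as a term Bhlhe40 was not called, at 1.39 (adjusted p = 0.148 by edgeR).

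Dbp, an output factor driven by BMAL1, was at 91.8, 77.9, 44.2, 32.4 and 40.1 CPM in WT chow and 0.71, 26.6, 31.8, 8.24 and 11.2 CPM in WT NASH. The groups did not overlap, and the log2 fold change was -1.86 (SE 0.561, adjusted p = 0.0538 by edgeR); with both terms it was -2.46 (adjusted p = 0.027 by edgeR). Per3, a repressor of the clock, had log2 fold changes of -1.74 (SE 0.55, adjusted p = 0.0633 by edgeR) and, with both terms, -2.77 (adjusted p = 0.0124 by edgeR). Nr1d1, the BMAL1 repressor REV-ERB alpha, was at 73.2, 63.3, 21, 18.1 and 8.66 CPM in WT chow and 59.5, 109, 87.3, 55.5 and 79 CPM in WT NASH. Chow replicates 1 and 2 were within the NASH range and the other 3 below it, with a log2 fold change of 1.08 (SE 0.433, adjusted p = 0.146 by edgeR). Usp2 and Nfil3 were also called, at -1.52 (SE 0.402, adjusted p = 0.0297 by edgeR) and 1.05 (SE 0.296, adjusted p = 0.0407 by edgeR), and with sex alone as a term neither was called. Without 1 WT library the call was lost on Usp2 (chow replicate 3 or 5 or NASH replicate 1, 2 or 3; edgeR adjusted p up to 0.0694) and on Nfil3 (chow replicate 3, 4 or 5 or NASH replicate 1, 2 or 5; up to 0.111).

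**Figure D5:**
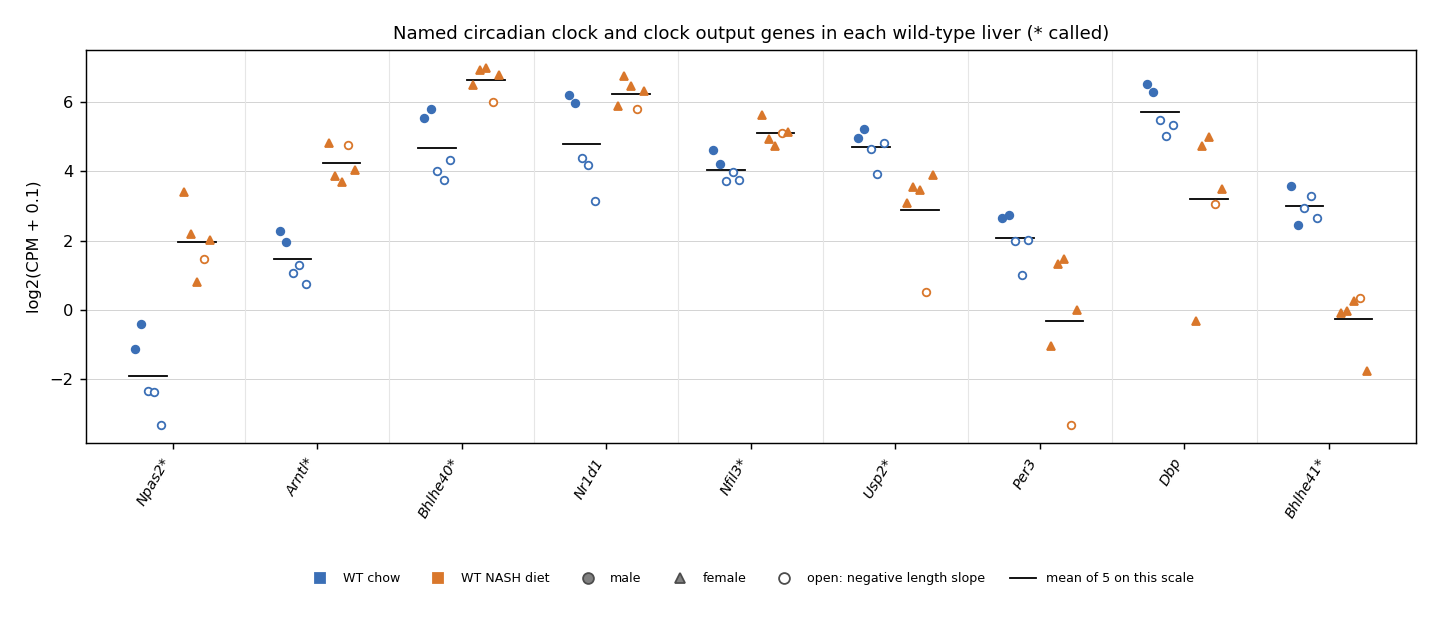
Expression, as log2(CPM + 0.1), of the 9 circadian clock and output genes named in the text, in each of the 10 WT livers, ordered by log2 fold change; colours and symbols as in the plot of sterol genes. Npas2 and Arntl are higher and Dbp and Bhlhe41 lower in every NASH liver than in every chow liver.

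Genes of glucose handling gave 2 rises and 2 falls among 18, beside 2.69% of all genes called higher and 3.24% lower. Gys2, the liver glycogen synthase, was at 468, 426, 519, 284 and 520.2 CPM in WT chow and 106, 99.4, 122, 74.4 and 114 CPM in WT NASH. The groups were well apart, with a log2 fold change of -2.1 (SE 0.235, adjusted p = 4.76e-05 by edgeR), and -2.04 (adjusted p = 0.000577 by edgeR) with both terms. Foxo1, a transcription factor that raises gluconeogenic genes and is excluded from the nucleus by insulin signalling, was higher at 1.37 (SE 0.28, adjusted p = 0.00664 by edgeR) and, with both terms, 1.01 (adjusted p = 0.00263 by edgeR), but not called with sex alone, at 1.27 (adjusted p = 0.104 by edgeR).

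Amino acid breakdown showed 1 rise and 3 falls among 21 genes, beside 2.69% of all genes called higher and 3.24% lower. Without the male NASH liver there were 2 rises and 6 falls. Glud1, the glutamate dehydrogenase, was at 738, 679.7, 567, 566 and 448 CPM in WT chow and 1382, 1433, 1423, 1115 and 1419 CPM in WT NASH, without overlap and with a log2 fold change of 1.18 (SE 0.216, adjusted p = 0.00319 by edgeR). With sex alone as a term it was 1.0 (adjusted p = 0.0772 by edgeR). Oat, the ornithine aminotransferase of pericentral hepatocytes, was at 2178, 2688, 1972, 1913 and 4034 CPM in WT chow and 810.1, 1405, 1584, 862 and 756 CPM in WT NASH. It was lower in every NASH liver, with a log2 fold change of -1.24 (SE 0.306, adjusted p = 0.0211 by edgeR) and of -1.58 (adjusted p = 0.0124 by edgeR) with both terms, though not without chow replicate 5 or NASH replicate 1 or 5 (edgeR adjusted p up to 0.0718). Asl, of the urea cycle, and Hpd, of tyrosine breakdown, were called lower at -1.35 (SE 0.31, adjusted p = 0.0136 by edgeR) and -0.87 (SE 0.216, adjusted p = 0.021 by edgeR), and neither was called with both terms. Hpd also lost the call without chow replicate 5 or NASH replicate 1, 2 or 5 (edgeR adjusted p up to 0.0739).

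Of 12 lipoprotein genes 3 were called lower and 0 higher, beside 3.24% and 2.69% of all genes. Apoa4, an apolipoprotein of triglyceride-rich particles, was at 1350.1, 2876, 3784, 3166 and 2183 CPM in WT chow and 854, 272, 373, 508 and 1327 CPM in WT NASH, without overlap and with a log2 fold change of -2.0 (SE 0.427, adjusted p = 0.00909 by edgeR), and of -1.98 (adjusted p = 0.0518 by edgeR) with both terms. Apoa5, which promotes plasma triglyceride clearance, was at 1416, 1528, 3093, 3699.7 and 3133 CPM in WT chow and 746, 769.5, 788, 1148 and 794 CPM in WT NASH, with a log2 fold change of -1.6 (SE 0.295, adjusted p = 0.00319 by edgeR), and was the only one called with both terms, at -1.22 (adjusted p = 0.00678 by edgeR). Apoc2, the activator of lipoprotein lipase, was lower at -1.1 (SE 0.258, adjusted p = 0.0154 by edgeR), and not called without chow replicate 3 (edgeR adjusted p = 0.0545).

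Of 19 bile acid genes, 1 was called in each direction, beside 2.69% of all genes called higher and 3.24% lower. Without the male NASH liver 0 were called higher and 4 lower. Cyp8b1, which directs synthesis to cholic acid, was at 623, 636, 699, 895 and 753 CPM in WT chow and 287, 252, 203, 228 and 224 CPM in WT NASH. The groups were far apart, with a log2 fold change of -1.59 (SE 0.292, adjusted p = 0.00311 by edgeR), though with sex alone as a term it was -1.31 (adjusted p = 0.0951 by edgeR). Cyp2c70, which makes muricholic acids in mice, was at 75.7, 86, 84.2, 425 and 136 CPM in WT chow and 368, 598, 472, 3650.2 and 883 CPM in WT NASH. Above all others was the male NASH liver, and the groups overlapped through chow replicate 4, with a log2 fold change of 2.89 (SE 0.765, adjusted p = 0.0306 by edgeR). This call was lost without chow replicate 1, 3 or 5 or NASH replicate 4 (edgeR adjusted p up to 0.0873), with sex alone as a term, at 2.86 (adjusted p = 0.0929 by edgeR), and in the WT libraries alone, while with both terms the value was 3.03 (adjusted p = 0.00191 by edgeR). Cyp7a1, the rate-limiting enzyme of bile acid synthesis, was at 131, 117, 167, 102 and 293 CPM in WT chow and 68.6, 128, 69.4, 46.5 and 119 CPM in WT NASH, with a log2 fold change of -0.91 (SE 0.6, adjusted p = 0.381 by edgeR).

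Scarring and inflammation genes mark steatohepatitis in other settings. Of 22 collagen and matrix genes 3 were called higher, beside 2.69% of all genes. The list median was 0.67, and with both terms 0 were called. Their summed level did not overlap between the diets, at 1358 to 2166 CPM in chow and 2430 to 3881 CPM in NASH livers. Such a sum, here and for other lists, follows its most abundant members. Col1a1 and Col3a1, given below, make up little of it. In 10 of the 22 (45.5%, beside 22.8% of all genes) the male NASH liver was above all 5 chow males. The count of 3 became 6 without chow replicate 1, 0 without chow replicate 5 or NASH replicate 2, and 1 without chow replicate 3 or 4 or NASH replicate 1, 3 or 5. None of the 16 tested markers of stellate cells and myofibroblasts was called (0 of 16; 3 without chow replicate 1 and 1 without NASH replicate 4), and their summed level was 184 to 358 CPM in chow and 272 to 394 CPM in NASH livers. Col1a1, the main collagen of scars, was at 7.34, 6.12, 1.69, 3.51 and 0.901 CPM in WT chow and 5.49, 6.7, 4.48, 8.83 and 8.33 CPM in WT NASH. The groups overlapped, with a log2 fold change of 0.76 (SE 0.527, adjusted p = 0.404 by edgeR). Col3a1 was at 24.8, 16.5, 9.25, 14.8 and 6.1 CPM in WT chow and 21.9, 29.5, 23, 48.1 and 32.6 CPM in WT NASH, with a log2 fold change of 1.11 (SE 0.439, adjusted p = 0.139 by edgeR). Acta2, the smooth muscle actin of myofibroblasts, was at 3.85, 3.68, 14.5, 2.66 and 1.32 CPM in WT chow and 2.45, 1.07, 1.82, 3.68 and 4.39 CPM in WT NASH, with a log2 fold change of -0.96 (SE 0.532, adjusted p = 0.29 by edgeR).

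The matrix genes called were Col15a1, a basement membrane collagen, Fn1, the fibronectin gene that hepatocytes also express, and Bgn, the proteoglycan biglycan. Their log2 fold changes were 1.86 (SE 0.447, adjusted p = 0.0176 by edgeR), 1.25 (SE 0.351, adjusted p = 0.0395 by edgeR) and 0.9 (SE 0.264, adjusted p = 0.0478 by edgeR). The calls were lost without chow replicate 5 or NASH replicate 2 for Col15a1 (edgeR adjusted p up to 0.0547), without chow replicate 3, 4 or 5 or NASH replicate 1, 2, 3 or 5 for Fn1 (up to 0.101), and without any 1 of 8 WT libraries, all but chow replicate 1 and NASH replicate 4, for Bgn (up to 0.116). Of 22 matrix remodelling genes, Loxl4 and Loxl1, which encode lysyl oxidases that cross-link collagen, were called higher, beside 2.69% of all genes. Loxl4 was at 1.24, 0.433, 1.79, 0.855 and 0.277 CPM in WT chow and 27.5, 7.59, 4.12, 3.38 and 7.23 CPM in WT NASH, without overlap and with a log2 fold change of 3.47 (SE 0.547, adjusted p = 0.000958 by edgeR), and of 2.71 (adjusted p = 0.0227 by edgeR) with both terms. Loxl1 was at 1.2 (SE 0.343, adjusted p = 0.0419 by edgeR) and lost the call without any 1 of 8 WT libraries, all but chow replicate 1 and NASH replicate 4 (up to 0.109).

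Macrophage markers overlapped between the diets. Of 22 genes of macrophages and lipid-associated macrophages 1 was called, with a median of -0.07, and their summed level was 680 to 2556 CPM in chow and 810 to 2456 CPM in NASH livers. The 1 called was Cd68, a lysosomal protein of macrophages, at 6.04, 14.5, 4.78, 7.5 and 3.46 CPM in WT chow and 14.1, 12, 16.9, 14.7 and 15.9 CPM in WT NASH, with a log2 fold change of 1.01 (SE 0.281, adjusted p = 0.038 by edgeR). Its call was lost without any 1 of 8 WT libraries, all but chow replicate 2 and NASH replicate 4 (edgeR adjusted p up to 0.0951), and with both terms. Gpnmb, a marker of lipid-associated macrophages, was at 0.829, 1.08, 0.498, 1.52 and 0.277 CPM in WT chow and 0.129, 0.415, 0.182, 2.06 and 0.323 CPM in WT NASH, with a log2 fold change of -0.71 (SE 0.791, adjusted p = 0.619 by edgeR). None of the 15 Kupffer cell, 9 tested neutrophil and 8 tested B and plasma cell markers was called (0 of each). Without chow replicate 2, 1 Kupffer cell and 1 B and plasma cell marker were called, and without NASH replicate 4, 1 neutrophil marker.

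Of 13 tested MHC genes Cd74, the invariant chain of MHC class II, was called, at 42.2, 51.8, 28.6, 61.4 and 26.7 CPM in WT chow and 75.6, 111, 103, 77.5 and 96.7 CPM in WT NASH. The groups did not overlap, with a log2 fold change of 1.14 (SE 0.259, adjusted p = 0.0128 by edgeR) and, with both terms, 1.12 (adjusted p = 0.0397 by edgeR). With sex alone as a term it was 1.16 (adjusted p = 0.1 by edgeR). Of 23 chemokine and cytokine genes Cxcl14 was called at 2.96 (SE 0.789, adjusted p = 0.0296 by edgeR); its highest value, 10.2 CPM, was in the male NASH liver, against 0.297 to 0.969 CPM in the females, and without this liver, or without chow replicate 3 or 5, the call was lost (edgeR adjusted p up to 0.0892). Of 14 tested T and NK cell markers Cd3e was called at 2.11 (SE 0.52, adjusted p = 0.0188 by edgeR), at levels of 0 to 0.355 CPM in chow and 0.441 to 1.78 CPM in NASH livers, and without NASH replicate 2 the adjusted p was 0.0676 by edgeR. Plvap, an endothelial diaphragm protein, was the only 1 of 17 endothelial markers called, at 1.46 (SE 0.33, adjusted p = 0.0126 by edgeR), and not with both terms. Acute phase genes (22) and heat shock genes (10 tested) gave 0 calls in either direction, apart from 1 acute phase gene without chow replicate 4. These list counts stand beside 2.69% of all genes called higher. The NASH male was above all 5 chow males in 50.0% of the acute phase, 42.9% of the T and NK cell and 39.1% of the chemokine genes. The shares were 38.5% for MHC, 31.8% for macrophage, 22.2% for neutrophil and 6.67% for Kupffer cell genes, beside 22.8% of all genes tested. In these lists this liver was below all 5 in 0 to 8.7%, beside 20.7% of all genes.

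Of the 6 tested red cell markers 2 were called lower, beside 3.24% of all genes. These were Hbb-bs and Hbb-bt, the adult beta globins, at -2.31 (SE 0.425, adjusted p = 0.00311 by edgeR) and -2.16 (SE 0.492, adjusted p = 0.0128 by edgeR). The groups overlapped for both, and with sex alone Hbb-bt was at -2.09 (adjusted p = 0.0951 by edgeR). The list median was -1.185, and -0.969 in males alone. Yet the NASH male was below all chow males in 0 of the 6 and above them in 1 (16.7%), beside 20.7% and 22.8% of all genes tested. The summed level of the 6 was 81.6 to 246 CPM in chow and 25.3 to 179 CPM in NASH livers. Blood left in the tissue was not measured otherwise, and its part in other results was not tested.

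Cell cycle and stress genes gave a few large rises. Among 24 tested cell cycle genes 3 were called higher, beside 2.69% of all genes. Cdkn1a, the cell cycle inhibitor p21, was at 1.18, 1.08, 1.69, 3.7 and 2.49 CPM in WT chow and 54.3, 14.7, 26.3, 10.4 and 44.7 CPM in WT NASH. Every NASH liver was above every chow liver, with a log2 fold change of 3.91 (SE 0.634, adjusted p = 0.00111 by edgeR), and of 4.35 (adjusted p = 0.0045 by edgeR) with both terms. Of 24 tested cell cycle genes, Ccnd1, the cyclin D1 gene, and Mki67, a proliferation marker, were the other 2 called, at 2.38 (SE 0.566, adjusted p = 0.0166 by edgeR) and 1.5 (SE 0.443, adjusted p = 0.0478 by edgeR). Ccnd1 was at 31.8 to 64.9 CPM in the female NASH livers, 12.5 CPM in the male and 7.46 to 9.31 CPM in chow, and with both terms it was 0.81 (adjusted p = 0.34 by edgeR). Mki67 lost the call with both terms and without any 1 of 7 WT libraries (chow replicates 3, 4 and 5 and NASH replicates 1, 2, 3 and 5; edgeR adjusted p up to 0.139).

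Of 18 genes of endoplasmic reticulum stress and the integrated stress response, Chac1 and Gdf15 were called higher, beside 2.69% of all genes. Chac1, a glutathione-degrading target of ATF4, was at 1.13, 1.19, 1.79, 3.23 and 1.18 CPM in WT chow and 3.49, 4.09, 7.63, 12.1 and 7.17 CPM in WT NASH, without overlap and with a log2 fold change of 2.02 (SE 0.408, adjusted p = 0.00618 by edgeR), and of 2.17 (adjusted p = 0.00892 by edgeR) with both terms. Gdf15, a stress hormone that lowers appetite, was higher at 1.53 (SE 0.438, adjusted p = 0.042 by edgeR), and not called with both terms or without any 1 of 9 WT libraries, all but NASH replicate 4 (edgeR adjusted p up to 0.123).

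Female-biased genes were higher in the NASH group, and the groups also differed in sex. Of 22 female-biased liver genes, 17 were called higher, beside 2.69% of all genes. The list's median log2 fold change was 7.57, which depends on a prior count where chow was near 0. With sex as a term 0 were called higher, beside 0.457% of all genes, and the median was 0.57. The count of 17 fell to 7 without any 1 of the chow livers or NASH replicate 2 or 5, to 8 without NASH replicate 3 and to 11 without NASH replicate 1. Sult2a1, a sulfotransferase, was at 0.0592, 0, 0.0995, 0 and 0 CPM in WT chow and 13.4, 1381, 114, 0.294 and 976 CPM in WT NASH. Only the female NASH livers had it above 1 CPM, and the log2 fold change with sex as a term was 2.46 (adjusted p = 0.631 by edgeR). Cyp3a16 was at 0.0592, 0.108, 0.0995, 0.285 and 0.0693 CPM in WT chow and 4.26, 567, 107, 0.883 and 167 CPM in WT NASH, in the same order, with 0.47 (adjusted p = 0.947 by edgeR). Both belong to families of near-identical genes, and chow counts were too few for a fold change.

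Cyp2b9, another female-biased gene, was at 2.19, 0.0542, 0.0995, 0.95 and 0.277 CPM in WT chow and 581, 796, 758, 0.588 and 562 CPM in WT NASH. The male NASH liver was at the chow level, so that the fold change of the called gene came from the 4 females. With sex as a term the log2 fold change of Cyp2b9 was 6.51, and the gene was not called. Of 21 tested male-biased genes 1 was called lower, beside 3.24% of all genes, with a median of -0.76. Without the male NASH liver 19 were called lower, beside 1024 of the 14440 genes tested. Among libraries of positive slope 14 were, beside 2.85% of all genes. Without 1 of 7 other WT libraries (chow replicate 3, 4 or 5 or NASH replicate 1, 2, 3 or 5) 0 were called lower. In 12 of the 21 (57.1%, beside 22.8% of all genes) the male NASH liver was above all 5 chow males, and in 3 (14.3%, beside 20.7%) below. The 1 called, Cyp4a12b, was at 172, 153, 147, 82.2 and 148 CPM in WT chow and 0.0646, 0, 0, 13.4 and 0 CPM in WT NASH. The male NASH liver was below every chow male and the females were near 0, with a log2 fold change of -5.95 (SE 1.73, adjusted p = 0.046 by edgeR) and -3.59 (adjusted p = 0.0135 by edgeR) with sex as a term. Without chow replicates 3, 4 or 5 or NASH replicates 1, 2, 3 or 5 the call on Cyp4a12b was lost (edgeR adjusted p up to 0.113). Over all genes, 147 (1.02%) had a called sex coefficient, and 43 of these were among the 857 genes called for diet, 38 higher and 5 lower.

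Further genes with large differences are given here, some of them named by a rule on size and separation. Aqp4, a water channel, was at 12.9, 8.5, 12.6, 8.83 and 9.56 CPM in WT chow and 1.23, 0.771, 0.484, 0.441 and 0.646 CPM in WT NASH. All NASH livers were far below all chow livers, with a log2 fold change of -3.82 (SE 0.319, adjusted p = 7.89e-07 by edgeR). Fmn1, an actin-nucleating formin, chosen after its values were seen, was at 2.43, 2.76, 1.79, 1.9 and 2.22 CPM in WT chow and 18.7, 12.9, 17.7, 20.3 and 13.4 CPM in WT NASH, with a log2 fold change of 2.88 (SE 0.226, adjusted p = 4.95e-07 by edgeR). Both kept the call in every alternative run, with -4.11 (adjusted p = 9.43e-06 by edgeR) and 2.76 (adjusted p = 5.49e-06 by edgeR) under both terms and -4.55 (adjusted p = 0.0174 by edgeR) and 3.18 (adjusted p = 0.000922 by edgeR) in males alone.

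Cgref1 was at 4.98, 3.79, 17.4, 29.8 and 14.6 CPM in WT chow and 0.129, 0, 0.182, 1.18 and 0.258 CPM in WT NASH. Every NASH liver was below every chow liver, with a log2 fold change of -5.71 (SE 0.76, adjusted p = 0.000197 by edgeR) and, with both terms, -4.38 (adjusted p = 0.00129 by edgeR). Enho, which encodes the peptide adropin and was named after its values were seen, was at 2.96, 3.79, 7.36, 9.59 and 5.13 CPM in WT chow and 36.7, 28.3, 17.7, 118 and 38.7 CPM in WT NASH. The highest value was that of the male NASH liver, with a log2 fold change of 3.06 (SE 0.625, adjusted p = 0.00679 by edgeR) and, with both terms, 2.89 (adjusted p = 0.00255 by edgeR). Hamp2, a hepcidin gene, was at 3.14, 9.64, 1.99, 12.1 and 17.7 CPM in WT chow and 48.9, 791, 256, 43.3 and 635 CPM in WT NASH, with a log2 fold change of 5.31 (SE 1.04, adjusted p = 0.00521 by edgeR), and not called with both terms. Slc22a29, a solute carrier of a gene cluster of close copies, was higher at 6.41 (SE 1.13, adjusted p = 0.00206 by edgeR) and, with both terms, 4.86 (adjusted p = 0.0262 by edgeR), but not called with sex alone, at 4.5 (adjusted p = 0.0821 by edgeR). Gstm3 and Gstt2, glutathione transferases of families whose reads may be shared, were called in opposite directions, at 2.88 (SE 0.461, adjusted p = 0.000978 by edgeR) and -2.35 (SE 0.35, adjusted p = 0.000597 by edgeR), and with both terms at 2.51 (adjusted p = 0.00345 by edgeR) and -2.25 (adjusted p = 0.00399 by edgeR).

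The same diet contrast in Pck1-cKO liver compares 3 male and 2 female libraries on chow with 4 male and 1 female libraries on the NASH diet. It was taken from the fit of all 20 libraries, so that the WT libraries enter its filter, scaling and spread. In it 475 genes were called (3.29%; 1.77% higher and 1.52% lower). Replicates 1 and 5 of its NASH group were closer than any other pair within a group, with a chi-square per gene of 7.98 against 21.6 for the next closest pair. This is above sampling noise, and they were kept as 2 libraries. Counted as 1 sample, they left 183 genes called in the knockout and 776 in WT. Of the 25 sterol genes 0 were called, with a median log2 fold change of 0.62 beside 1.94 in WT. A call in WT and none in the knockout is not itself a difference, and the test of the difference between the diet effects called 20 genes (0.139%), 1 of them among the sterol genes. With that pair as 1 sample it called 4 genes and 0 sterol genes, and of the 7 named genes with a called difference (Hmgcs1, Cidec, Aqp4, Fmn1, Bhlhe41, Acly and Cyp2b9) only Aqp4, Cidec and Fmn1 kept the call.

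Hmgcs1 was that gene, with a log2 fold change on the diet of 0.65 (adjusted p = 0.292 by edgeR) in the knockout and a difference, knockout minus WT, of -2.87 (adjusted p = 0.0348 by edgeR). For Fdps and Idi1 the differences were -2.79 (adjusted p = 0.09 by edgeR) and -4.34 (adjusted p = 0.169 by edgeR). Cidec was at -1.36 (adjusted p = 0.0846 by edgeR) in the knockout, with a difference of 4.17 (adjusted p = 0.0111 by edgeR). Aqp4 and Fmn1 also differed, by 2.78 (adjusted p = 0.00499 by edgeR) and -2.12 (adjusted p = 0.00499 by edgeR), as did Bhlhe41, by 3.36 (adjusted p = 0.0423 by edgeR), and Acly, by -1.39 (adjusted p = 0.0451 by edgeR). Cyp2b9 differed by -9.79 (adjusted p = 0.0348 by edgeR), in groups of different sex make-up. For Cyp4a14 and Arntl the differences were 2.08 (adjusted p = 0.607 by edgeR) and -1.62 (adjusted p = 0.171 by edgeR). Gys2 was lower in both, at -1.77 (adjusted p = 0.000788 by edgeR) in the knockout, with a difference of 0.34 (adjusted p = 0.859 by edgeR).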

How the data were processed

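Total RNA of whole liver was extracted with Trizol and sequenced on an Illumina platform, per the labels' protocols. The authors deposited 1 table of raw read counts per gene for 46095 genes and 20 libraries, named by symbol. HISAT2 2.0.4 and build GRCm38 are listed in the submitters' processing notes; which program counted reads, on which annotation, and whether by strand is not stated there. Columns were matched to samples by genotype, diet and replicate number, with HFD taken as the NASH diet. The replicates are separate libraries per the labels, and nothing says whether litters or cages were shared.

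Counts were fitted with edgeR 4.0.16 in R 4.3.3 (TMM scaling, filterByExpr with a minimum count of 10, quasi-likelihood, 4 groups of 5, all 20 libraries). The 14440 genes tested held 99.91% of all counts, the biological coefficient of variation was 39%, and p-values were adjusted over these genes. SEs are the unshrunk log2 coefficient over the root of the F statistic. Sex was read from at least 100 counts on Ddx3y, Kdm5d, Eif2s3y and Uty. The length slope is the regression, per library, of log2 CPM relative to the mean on log2 gene length, over 9518 genes of mean log2 CPM of at least 2. Lengths were found for 13502 of the tested genes (93.5%). Alternatives used other scaling and filters, DESeq2 1.42.0, limma 3.58.1 voom weights, only the WT libraries, sex and slope terms, a replicate block and omission of single WT libraries. Fits on libraries of 1 slope sign, and of the knockout contrasts with its closest NASH pair as 1 sample, were added after seeing the data. The steps were checked on simulated counts.

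Gene lists held 728 genes, of which 675 were tested. The members and lists were chosen with earlier results of these data known. The text names, among called genes of at least 5 CPM without overlap, the 8 largest rises and falls without covariates and with both terms, and up to 2 called members per list and direction. The most abundant member of each list was named where its values add to the account, and most female-biased genes are given as counts only. Some genes that these rules pick are not reported here. Other genes are named for their role or were chosen after their values were seen.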

Additional observations from a re-analysis of the deposited data

Results flagged for a closer look

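In 246 groups of 5 values, on the log2(CPM + 0.1) scale, 27 had 1 library whose gap to its nearest neighbour exceeded 0.71 of the group's range. For independent groups chance would give about 12. These groups share the same 10 libraries and many of the genes were chosen for their values, so the 27 cannot be tested against that number. In 20 of the 27 the library apart was WT NASH replicate 4, the male NASH liver of negative slope, and in 18 of these it was the lowest. The gap for this liver, as a share of the range, was 0.815 for Acaca, 0.813 for Fasn, 0.853 for Elovl6 and 0.769 for Pklr among lipogenic genes. It was 0.867 for Cyp4a10, 0.786 for Cyp4a14, 0.745 for Cyp4a31, 0.776 for Acot2, 0.737 for Ehhadh, 0.763 for Hadha, 0.859 for Cpt1a and 0.869 for Ppara among genes of oxidation. For Slc27a1 it was 0.849, for Vldlr 0.835, for Glud1 0.855, for Usp2 0.761, for Inhbe 0.752, for Apoa5 0.855 and for the sex-biased Cyp2b9 and Cyp4a12b 0.951 and 0.898. This liver was above the females for Apoa5 and Cyp4a12b.

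Of the other 7 groups, chow replicate 4 stood apart for Mvd (0.877), Krt23 (0.869), Ccnd1 (0.743) and Cyp4a12b (0.789), NASH replicate 5 for Bhlhe41 (0.791) and Clstn3 (0.723), and NASH replicate 1 for Ebp (0.835).

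The diet effect differed between genotypes, by edgeR's test of knockout minus WT, for 7 of the genes named. The difference was -2.87 for Hmgcs1, -1.39 for Acly, -2.12 for Fmn1 and -9.79 for Cyp2b9, and 4.17 for Cidec, 3.36 for Bhlhe41 and 2.78 for Aqp4 on the log2 scale. With replicates 1 and 5 of the knockout NASH group, the closest pair, as 1 sample, the edgeR adjusted p was 0.0689 for Hmgcs1, 0.0893 for Acly, 0.0723 for Cyp2b9 and 0.0618 for Bhlhe41, and 0.0124, 0.0124 and 0.0273 for Fmn1, Aqp4 and Cidec. The part of sex in these differences was not tested.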

How the results depend on the processing

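The count of 857 genes (389 higher, 468 lower) was 1496 with DESeq2 (652, 844), 5866 with voom weights (3000, 2866), 426 with only the WT libraries (239, 187), 161 with sex as a term (66, 95), 1775 with slope as a term (967, 808), 99 in males alone (53, 46) and 36 among libraries of negative slope (18, 18). The share called higher was 45.4% as reported, 56.1% in the WT libraries alone and 54.6% with both terms. Leaving out 1 WT library gave 409 to 1718 genes, 199 to 694 higher and 201 to 1024 lower. The other alternatives gave 631 (no low-count filter) to 1026. The last is the replicate block (498 higher, 528 lower). With replicates 1 and 5 of the knockout NASH group as 1 sample 776 were called, and of the 102 calls named 91 were kept; the count of 475 in the knockout fell to 183 and that of 20 differences to 4, 2 alternatives added after seeing the data. The replicate numbers do not pair the samples: same-numbered deviations correlated at -0.32 to 0.509, and 2 of 5 numbers correlated best with themselves.

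Of 123 tested genes named, 102 were called, and 40 of these kept the call with sex as a term, 100 with slope, 62 with both, 24 in males alone, 70 in the WT libraries alone, 96 with the replicate block, 88 with no low-count filter, 69 among libraries of positive slope and 16 of negative slope. The calls lost in the WT libraries alone were those on Acaca, Alas1, Apoc2, Asl, Bgn, Cd3e, Cd68, Cxcl14, Cyp2c70, Cyp4a10, Cyp4a12b, Cyp4a14, F11, Fn1, Gbp3, Gstm1, Hadha, Hbb-bt, Hpd, Hsd17b13, Ifih1, Inhba, Krt23, Loxl1, Lpcat3, Lpin2, Mki67, Oat, Pdgfa, Pnpla3, Stat5b and Usp2. DESeq2 and size-factor scaling lost none of the 102, and 65 kept the call whichever WT library was left out. Direction reversed in males alone for Acaca (-0.00597), Cyp2b9 (-0.32), Inhba (-0.78), Pnpla3 (-1.82) and Vldlr (-6.98), among libraries of negative slope for Inhba (-1.10), Pnpla3 (-2.53) and Vldlr (-6.56), and of positive slope for Cd36 (1.45). Males alone and negative slope each leave 1 WT NASH library, whose spread is assumed to be that of the other groups. Where these results depend on sex or slope, the cause was not tested. Chow values under 1 CPM rest on fewer than 20 counts and limit the folds given.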

Other observations

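Several gene groups outside the sections above gave some calls each, beside 2.69% of all genes called higher and 3.24% lower. Of 22 tested genes of PDGF and TGF-beta signalling, with a median log2 fold change of 0.24 beside 0.01 for all genes, 1 was called higher and 2 lower. Inhbe, which encodes a hepatic activin subunit, was at 138, 86.7, 94.3, 136 and 94.4 CPM in WT chow and 42.4, 31.3, 30.1, 10.7 and 35.2 CPM in WT NASH. Its log2 fold change was -1.87 (SE 0.417, adjusted p = 0.0114 by edgeR), and -2.21 (adjusted p = 0.0383 by edgeR) with both sex and slope as terms; with sex alone it was not called, at -2.12 (adjusted p = 0.0806 by edgeR). Inhba, another activin subunit, and Pdgfa, a platelet-derived growth factor, were called at 1.32 (SE 0.382, adjusted p = 0.0443 by edgeR) and -1.13 (SE 0.31, adjusted p = 0.0357 by edgeR), and neither with both terms. The call was lost without any 1 of 9 WT libraries, all but NASH replicate 4, for Inhba (edgeR adjusted p up to 0.14), and without chow replicate 3, 4 or 5 or NASH replicate 1, 2, 3 or 5 for Pdgfa (up to 0.096). Of 20 tested genes of insulin and IGF signalling, with a median of 0.25, Foxo1 and Stat5b were called higher and Igfbp2 lower. Stat5b, which transmits growth hormone signals, was at 35.8, 39.6, 15.9, 19.2 and 13.5 CPM in WT chow and 76.8, 70.9, 68, 32.7 and 58.9 CPM in WT NASH. The groups overlapped through the male NASH liver, with a log2 fold change of 1.31 (SE 0.312, adjusted p = 0.0172 by edgeR) and, with both terms, 0.93 (adjusted p = 0.00255 by edgeR). It was not called with sex alone, at 1.18 (adjusted p = 0.204 by edgeR), nor in the WT libraries alone. Igfbp2, an IGF binding protein, was at -2.15 (SE 0.46, adjusted p = 0.00915 by edgeR) and, with both terms, -1.55 (adjusted p = 0.0574 by edgeR).

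Alas1, the first enzyme of heme synthesis, was at 1159, 794, 689, 506 and 1080.5 CPM in WT chow and 452, 223, 390.1, 57.7 and 364 CPM in WT NASH. The groups did not overlap, with a log2 fold change of -1.51 (SE 0.37, adjusted p = 0.0207 by edgeR) and, with both terms, -2.24 (adjusted p = 0.0113 by edgeR). It was not called with sex alone, at -1.88 (adjusted p = 0.0929 by edgeR), nor in the WT libraries alone. Without chow replicate 5 or NASH replicate 2 the edgeR adjusted p for Alas1 was up to 0.0625. Retsat, which saturates retinol, was at 860.4, 854, 1414, 593 and 1075 CPM in WT chow and 427, 212, 249, 49.9 and 199.8 CPM in WT NASH. Every NASH liver was below every chow liver, with a log2 fold change of -2.08 (SE 0.416, adjusted p = 0.006 by edgeR), and of -2.25 (adjusted p = 0.0389 by edgeR) with both terms; with sex alone it was not called, at -2.08 (adjusted p = 0.102 by edgeR). Of 23 interferon-stimulated genes, with a median of 0.51, 3 were called higher (6 without the male NASH liver), among them Ifih1 and Gbp3 at 0.52 (SE 0.149, adjusted p = 0.0432 by edgeR) and 1.01 (SE 0.299, adjusted p = 0.0493 by edgeR). Neither was called with both terms, and each call was lost without single WT libraries. These were all but chow replicate 4 and NASH replicate 4 for Gbp3 (edgeR adjusted p up to 0.143), and chow replicates 3 and 5 and NASH replicates 1, 2, 3 and 5 for Ifih1 (up to 0.117). Among the adipose markers, Lep and Retn had 0 counts over the 10 WT libraries and Adipoq had 35.

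Of 22 Cyp2b, Cyp2c and Cyp3a genes of drug metabolism, 8 were called higher and 1 lower, and with sex as a term 0 were called higher. The 8 fell to 4 without NASH replicate 1 and to 2 without any other 1 WT library but the male NASH liver. Of the 8, all are female-biased genes by the list above. Cyp3a11, the main Cyp3a enzyme of mouse liver, was the 1 called lower, at -1.68 (SE 0.47, adjusted p = 0.0394 by edgeR) and, with both terms, -2.05 (adjusted p = 0.0125 by edgeR). Its call was lost without any 1 of 8 WT libraries, all but chow replicate 1 and chow replicate 2 (edgeR adjusted p up to 0.107). Of 18 glutathione and NRF2 target genes, Gstm1 and Gstm3 were called higher and Srxn1, a sulfiredoxin, lower, with Gstm1 at 1.36 (SE 0.396, adjusted p = 0.0465 by edgeR) and Srxn1 at -0.87 (SE 0.227, adjusted p = 0.0275 by edgeR); with both terms Gstm3 alone was called. Gstm1 lost the call without chow replicate 3, 4 or 5 or NASH replicate 1, 2, 3 or 5 (edgeR adjusted p up to 0.121) and Srxn1 without chow replicate 3 or 4 or NASH replicate 2, 3 or 5 (up to 0.0828). Hsd17b13, a lipid droplet protein of hepatocytes and the 1 called of 14 periportal genes, was at 401, 445, 1505, 632 and 1196 CPM in WT chow and 234, 247, 328, 548 and 235 CPM in WT NASH. Its log2 fold change was -1.39 (SE 0.356, adjusted p = 0.0254 by edgeR), and -0.81 (adjusted p = 0.107 by edgeR) with both terms. Lpcat3, a phospholipid acyltransferase and the 1 called of 8 sterol efflux genes, was at -0.63 (SE 0.147, adjusted p = 0.0154 by edgeR) and -0.56 (adjusted p = 0.0515 by edgeR) with both terms. F11, a coagulation factor and the 1 called of 24 complement and coagulation genes, was at 1.11 (SE 0.308, adjusted p = 0.0386 by edgeR), and Krt23, a keratin and the 1 called of 12 ductular markers, at -2.38 (SE 0.646, adjusted p = 0.0337 by edgeR); neither was called with both terms. Car3, a carbonic anhydrase also abundant in fat and the 1 called of 3 tested adipose markers, was at 2.0 (SE 0.558, adjusted p = 0.0392 by edgeR), and not called with sex alone, at 1.97 (adjusted p = 0.162 by edgeR). Without single WT libraries the calls were lost on Hsd17b13 (chow replicate 3 or 5 or NASH replicate 1, 2, 3 or 5; edgeR adjusted p up to 0.0938), F11 (chow replicate 3, 4 or 5 or NASH replicate 1, 2, 3 or 5; up to 0.0966), Krt23 (chow replicate 2, 3 or 5 or NASH replicate 1, 3 or 5; up to 0.083) and Car3 (any 1 of 8 WT libraries, all but chow replicate 5 and NASH replicate 4; up to 0.105).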
